A study of Mus musculus with 34 samples.

Results

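Promoters that carried H3K4me3 in both embryonic limb and forebrain, and H3K27me3 in forebrain but not in limb, are described here. H3K4me3 is the histone mark of gene starts that can be transcribed, and H3K27me3 is the mark written by Polycomb repressive complex 2. The rows (peaks) were chosen by 4 deposited lists: a limb H3K4me3 row was kept if it shared at least 1 bp with a forebrain H3K4me3 row and with a forebrain H3K27me3 row, and shared no bp with a limb H3K27me3 row. This kept 465 rows, called forebrain-only rows below. They were 465 of 15472 limb H3K4me3 rows shared with forebrain and of 19688 limb H3K4me3 rows in all. Of the other shared rows, 3289 had H3K27me3 in both tissues, 2339 in limb only and 9379 in neither.

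The series mapped FLAG-tagged coactivators and histone marks in mouse by chromatin immunoprecipitation and sequencing, with 1 library per condition. Histone marks came from CD1 embryos of day 11.5, about 150 pooled per sample: H3K4me1, H3K4me3 and H3K27me3 in limb and in forebrain, and H3K27ac, a mark of active elements, in limb. FLAG samples came from 129/C57BL/6 animals with a FLAG knock-in, precipitated with the anti-FLAG antibody M2, as pools of about 150 or about 300 embryos of day 11.5, or from embryonic stem cells (ESC). SMARCA4, which supplies the ATPase activity of SWI/SNF chromatin remodelling, was mapped in ESC, heart, limb, neural tube, face and the 3 brain regions. SMARCC2, a further SWI/SNF subunit, was mapped in face and hindbrain, the histone acetyltransferase EP300 in face and ESC, and NCOA1 and NCOA2, coactivators of nuclear receptors, in hindbrain. Male and female embryos were pooled, and control lists were read for 6 of the 14 FLAG lists. Peak positions are in mm9, and promoter sequences carry their own build.

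Polycomb repressive complexes keep developmental regulators silent in cells where they are not used, and H3K27me3 that lies beside H3K4me3 at a CpG-rich gene start is known as a bivalent state. H3K27me3 and H3K27ac modify the same lysine, so a single histone tail cannot carry both. Limb and forebrain are mixtures of cells, so both marks on a row may come from different cells, and fewer cells with a mark cannot be told apart from less of the mark per cell.

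The promoters of the forebrain-only rows were CpG-rich. Of the 465 rows, 325 (69.9%, 95% exact binomial interval 65.5 to 74.0) had a gene start within 1 kb, against 71.5% of all shared rows. RefSeq promoters (300 bases, 250 before to 50 after the start, GRCm38.p6) were found for 223 genes of these rows and held a median of 23 CpG pairs, against 21 at rows with H3K27me3 in both tissues, 20 at rows with it in limb only, 22 at rows with it in neither and 7 over all 27025 promoters of the table. The promoters of 4 genes are printed below, with every CpG in capitals, because their loci recur in the results and because they differ widely in CpG content. The Gli3 promoter (chr13:15463473-15463772, plus strand) holds 39 CpG, that of Tle1 (chr4:72200844-72201143, minus strand) 40, that of Rarg (chr15:102257473-102257772, minus strand) 12, and that of Col1a2 (chr6:4505368-4505667, plus strand) 13.
Gli3: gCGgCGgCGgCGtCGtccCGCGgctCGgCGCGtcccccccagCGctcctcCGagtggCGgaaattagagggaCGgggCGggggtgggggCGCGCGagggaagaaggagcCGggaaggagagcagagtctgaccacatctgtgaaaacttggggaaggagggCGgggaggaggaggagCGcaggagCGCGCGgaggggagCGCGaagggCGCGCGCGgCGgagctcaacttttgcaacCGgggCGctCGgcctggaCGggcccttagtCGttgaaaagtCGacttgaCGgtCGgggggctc
Tle1: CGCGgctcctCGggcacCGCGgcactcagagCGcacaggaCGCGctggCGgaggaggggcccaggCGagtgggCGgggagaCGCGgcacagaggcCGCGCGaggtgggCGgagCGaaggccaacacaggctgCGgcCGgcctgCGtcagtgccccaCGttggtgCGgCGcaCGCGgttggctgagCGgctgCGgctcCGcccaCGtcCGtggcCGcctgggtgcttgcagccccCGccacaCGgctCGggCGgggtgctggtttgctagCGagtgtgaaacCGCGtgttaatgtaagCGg
Rarg: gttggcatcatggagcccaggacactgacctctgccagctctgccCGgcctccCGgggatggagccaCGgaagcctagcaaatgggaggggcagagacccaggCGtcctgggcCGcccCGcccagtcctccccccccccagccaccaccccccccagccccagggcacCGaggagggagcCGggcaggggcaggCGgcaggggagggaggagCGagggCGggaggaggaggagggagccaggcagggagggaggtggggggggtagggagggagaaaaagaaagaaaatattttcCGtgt
Col1a2: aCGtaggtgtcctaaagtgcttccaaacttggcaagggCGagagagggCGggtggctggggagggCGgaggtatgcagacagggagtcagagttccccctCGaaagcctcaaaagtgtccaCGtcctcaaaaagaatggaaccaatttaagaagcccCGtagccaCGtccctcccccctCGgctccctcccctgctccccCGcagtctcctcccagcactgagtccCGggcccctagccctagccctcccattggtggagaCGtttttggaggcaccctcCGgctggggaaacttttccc
The motif TATAAA, searched on both strands, was in 7 of 223 of these promoters (3.14%, interval 1.27 to 6.36), against 7.97% at rows with H3K27me3 in both tissues, 5.85% at rows with it in limb only, 5.45% at rows with it in neither and 14.2% of all promoters in the table. The shares of the limb-only and neither classes lie inside that interval. A match of these letters says nothing on its use.

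Widths and positions of the selecting marks come first, as a description of what the selection gave. The H3K27me3 over these rows in forebrain was narrower and lower in rank than at rows with H3K27me3 in both tissues. The forebrain H3K27me3 row had a median width of 827 bp, against 1459 bp at rows with H3K27me3 in both tissues, and a median rank of 6182 among 11073 rows by the authors' rank, against 2943. The median width over that whole list was 990 bp, and 204 of the 465 rows (43.9%) had theirs in its better-ranked 50%. The limb H3K27me3 list was longer and wider, with 13137 rows of a median width of 2052 bp. The part of this difference between the lists in the class sizes was not tested. The forebrain H3K27me3 row covered a median of 23.8% of the limb H3K4me3 row, and covered at least 50% of it in 53 rows (11.4%). In 446 rows (95.9%) a forebrain H3K27me3 row over the limb row also touched a forebrain H3K4me3 row. Counting for each limb row only the forebrain H3K27me3 row with the largest overlap, the 465 rows had 464 distinct ones. A limb row can lie over several forebrain H3K27me3 rows.

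Forebrain H3K27me3 mostly lay beside the gene start and seldom over it. Of 225 rows whose gene has a strand in the RefSeq table, the H3K27me3 row lay downstream of the start in 130 (57.8%, interval 51.0 to 64.3), upstream in 79 (35.1%) and over it in 16 (7.11%, interval 4.12 to 11.3). Their nearest edge was a median of 726 bp from the start downstream and 613 bp upstream. At rows with H3K27me3 in both tissues, the forebrain H3K27me3 row lay over the start in 17.3% (interval 15.5 to 19.2) of 1704 rows. The nearest limb H3K27me3 row was a median of 55824 bp away. It was within 5000 bp in 79 rows and within 1000 bp in 21 (4.52%).

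**Figure D1:**
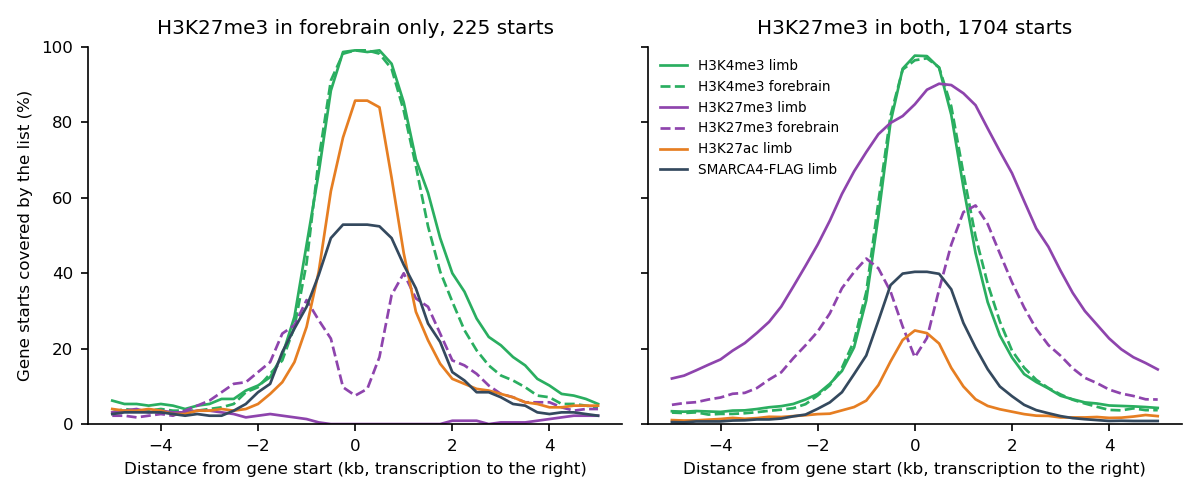
Share of gene starts (percent, vertical axis) covered by each deposited list, by distance from the gene start in kb (horizontal axis, transcription to the right), for 225 starts at forebrain-only rows (left) and 1704 starts at rows with H3K27me3 in both tissues (right). On the left, forebrain H3K27me3 covers 7.56% of starts at the start itself and 40.0% at 1000 bp downstream, while limb H3K27ac covers 85.8% at the start; on the right, limb H3K27ac covers 24.8% at the start.

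Rows at the edge of the rule are given as a description. The smallest overlaps with forebrain H3K27me3 were 6 bp near Sv2b and 8 bp near 4930535E21Rik. Just outside, the rows of Caprin2 and of Mycn, which encodes a MYC family transcription factor, missed a forebrain H3K27me3 row by 2 and 9 bp. On the limb side, the row of Igf1, a growth factor, lay 84 bp from a limb H3K27me3 row and was kept, while Tmem57 (Maco1) shared 37 bp with a limb H3K27me3 row and was not.

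Limb H3K4me3 was broad over the forebrain-only rows. Their median width was 2250 bp (interquartile range 1584 to 3246, lowest 540, highest 11601), against 1891 bp at rows with H3K27me3 in both tissues, 1631 bp in limb only and 2055 bp in neither. Rows at least 4 kb wide were 73 of 465 (15.7%, interval 12.5 to 19.3), against 8.09%, 5.0% and 5.64% in those classes. Width was not itself used by the rule, but the rule asks for an overlap, and overlap with limb H3K27ac and with limb and heart SMARCA4 rose with width in every class. The part of the rule in these widths was not tested. With 1 library per condition there is no replicate check, so intervals cover counting error only and no p-value was computed.

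The limb row was also wider than the forebrain row more often than elsewhere. This held for 226 of 465 rows (48.6%, interval 44.0 to 53.3), against 40.7% at rows with H3K27me3 in both tissues, 29.0% with it in limb only and 26.6% with it in neither. The limb row was at least 2 times as wide in 19 rows (4.09%) and the forebrain row at least 2 times as wide in 8 (1.72%). In the other classes the order was the other way, with 3.59% and 4.93% for H3K27me3 in both tissues, 0.898% and 8.17% in limb only and 1.01% and 2.09% in neither. Of the 19 rows, 18 had limb H3K27ac, against 72.3% of the 253 such rows among all shared rows and 91.6% of those with H3K27me3 in neither tissue. Of the 8, 0 had it (interval up to 36.9%), against 29.4% of 557 among all shared rows. Examples among the 19 were the rows of Rarg, the retinoic acid receptor gamma gene (10407 bp in limb, 3410 bp in forebrain), of Ephb3, an ephrin receptor gene (9049 and 2992 bp), of Rasl11b (8663 and 2495 bp), of Ltbp3, which encodes a latent TGF-beta binding protein (6021 and 1852 bp), and of Itgb5, an integrin gene (5914 and 2122 bp). The row with the highest ratio, 5.42, lay near Ahdc1 with no gene start within 1 kb. Celsr3, which encodes an atypical cadherin needed for axon tracts, was among the 8, with 879 bp in limb and 5186 bp in forebrain.

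**Figure D2:**
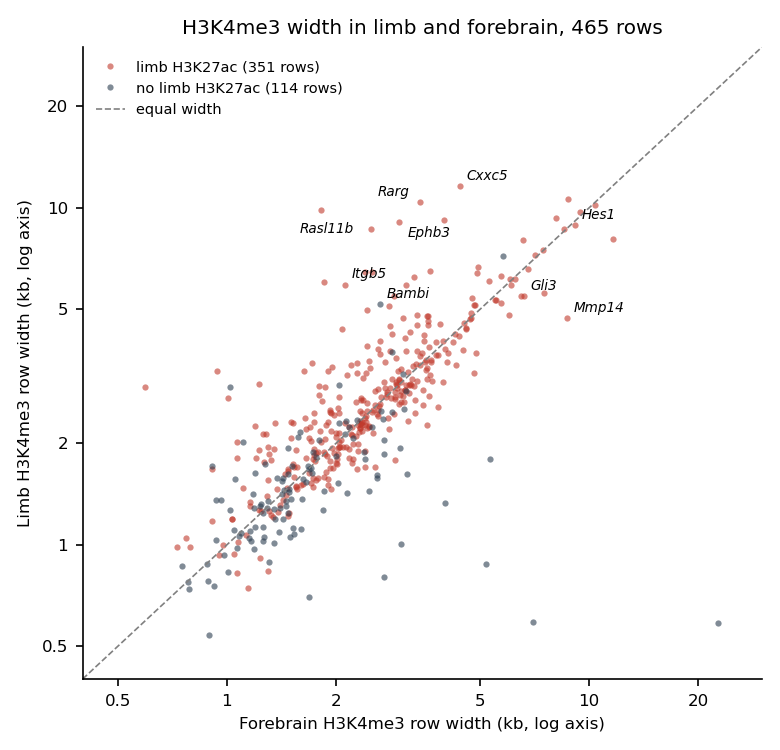
Width of the limb H3K4me3 row against the width of the overlapping forebrain H3K4me3 row, both in kb on log axes, for the 465 forebrain-only rows; red points have limb H3K27ac (351 rows), dark points do not (114 rows), and the dashed line marks equal width. Most points lie near the line, and Rarg, Ephb3 and Rasl11b lie above it.

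Most forebrain-only rows were acetylated in limb. Limb H3K27ac was on 351 of 465 rows (75.5%, interval 71.3 to 79.3), against a background of 63.8% of all shared rows. The share was 83.1% (interval 82.3 to 83.9) at rows with H3K27me3 in neither tissue. It was 36.0% (34.0 to 38.0) with it in limb only and 26.9% (25.4 to 28.4) with it in both. These last classes have limb H3K27me3 by definition and forebrain-only rows have none, so this contrast is not independent of the selection. The forebrain-only rows were thus 7.66 percentage points lower than rows without H3K27me3 (difference -7.66, 95% Newcombe interval -11.8 to -3.89). Without the forebrain-only rows that lay within 5 kb of limb H3K27me3 the difference was -2.31 (interval -6.60 to 1.38). This filter was not put on the rows without H3K27me3, so the comparison is not like for like. Among rows of both classes touching no control or input list the difference was -9.96 (interval -20.7 to 1.29). Both intervals include 0. The gap narrowed with width. Below 2 kb, 52.9% of 193 forebrain-only rows had H3K27ac, against 70.4% of rows with H3K27me3 in neither tissue and 11.1% with it in both. From 2 to 3 kb the shares were 86.1%, 93.9% and 35.0%. At 4 kb and above they were 97.3%, 97.0% and 81.6%.

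H3K4me1, the mark of enhancers and of promoter flanks, was on 416 of 465 rows in limb (89.5%, background 86.8%) and on 405 in forebrain (87.1%, background 79.8%). Rows with H3K27me3 in both tissues had more of it, 97.1% in limb and 91.1% in forebrain, and rows with it in neither had less, 81.5% and 74.4%.

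**Figure D3:**
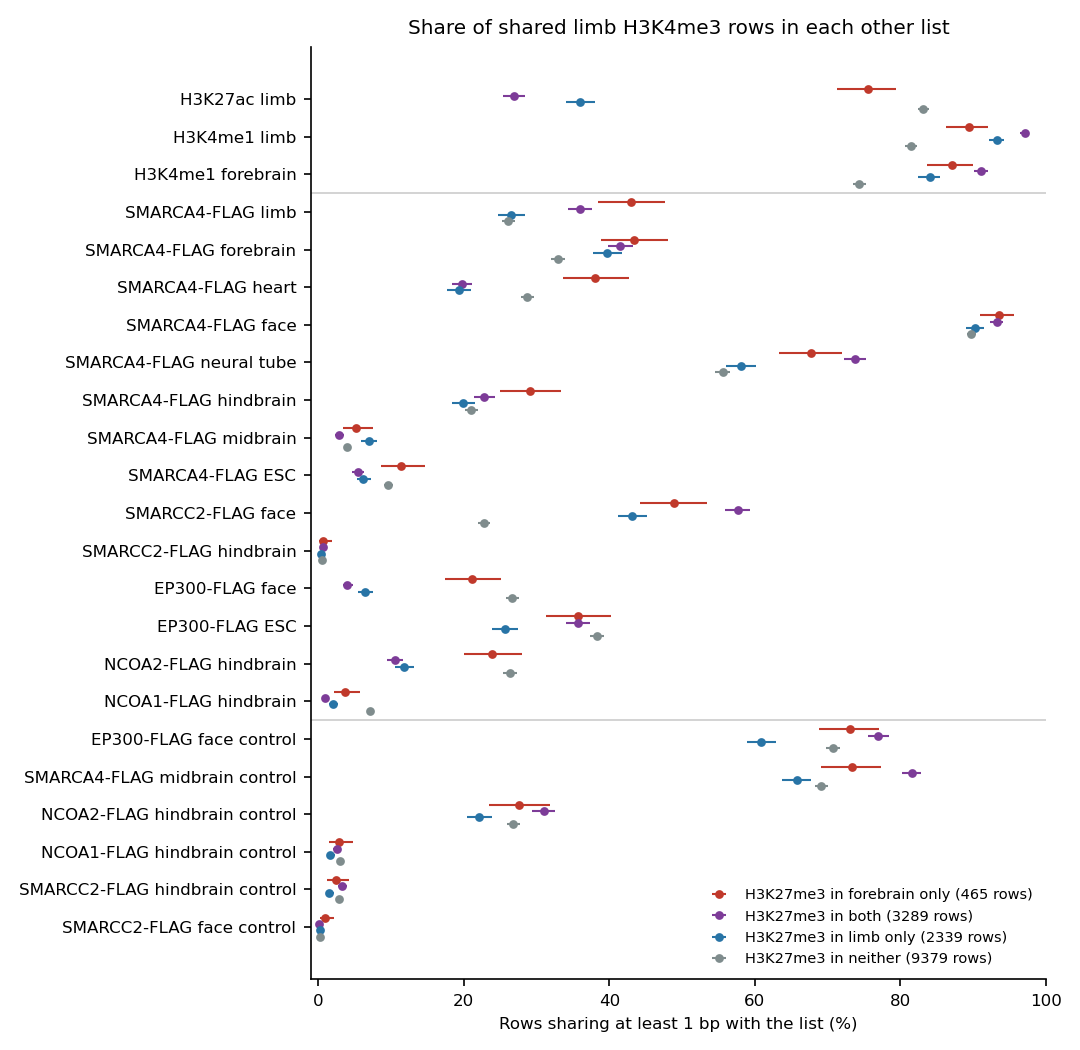
Share of rows (percent, horizontal axis) that shared at least 1 bp with each other list (vertical axis), for the 4 classes of shared limb H3K4me3 rows; points are shares and bars are exact 95% binomial intervals. Limb H3K27ac stands at 75.5% of forebrain-only rows and 26.9% of rows with H3K27me3 in both tissues, and the EP300 face and SMARCA4 midbrain control lists lie above 60% in all 4 classes.

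SMARCA4 was found at forebrain-only rows in about equal shares in limb and forebrain. The limb list held 200 of 465 rows (43.0%, interval 38.5 to 47.6, background 28.8%) and the forebrain list 202 (43.4%, interval 38.9 to 48.1, background 36.1%). The limb share was higher than the 35.9%, 26.5% and 26.1% at rows with H3K27me3 in both tissues, in limb only and in neither. In forebrain those classes stood closer, at 41.5%, 39.7% and 32.9%. Both lists together held 115 rows, limb alone 85 and forebrain alone 87. Among the 172 rows with SMARCA4 in 1 of these tissues, limb made up 49.4% (interval 41.7 to 57.1), against 42.3% (39.5 to 45.2) at rows with H3K27me3 in both tissues, 38.7% (36.8 to 40.5) in neither and 31.9% (28.8 to 35.1) in limb only. The forebrain list is longer than the limb list, with 7349 rows against 5251, so the order of the classes carries the comparison and not the share itself.

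Control lists and width moved with the SMARCA4 shares. Of the forebrain-only rows, 387 (83.2%) touched a control or input list, against 82.0% of all shared rows. Among these 387 rows 50.1% had limb SMARCA4, against 30.7% at rows with H3K27me3 in neither tissue. Among the 78 rows that touched no control or input list, limb SMARCA4 was on 6 (7.69%, interval 2.88 to 16.0), against 7.28% at rows with H3K27me3 in neither tissue and 7.87% with it in both, so off the control lists no difference between classes was detectable at this number of rows. Forebrain SMARCA4 was there on 12 of 78 (15.4%, interval 8.21 to 25.3), below the 19.8% of all shared rows off those lists and the 20.1%, 21.2% and 19.6% with H3K27me3 in both tissues, in limb only and in neither, all inside that interval. Limb SMARCA4 rose with row width in every class, and within widths of 2 to 3 kb it was on 47.5% of forebrain-only rows, 43.1% with H3K27me3 in both tissues and 30.3% with it in neither. Below 2 kb the shares were 24.4%, 27.6% and 14.3%, and at 4 kb and above 69.9%, 52.3% and 59.4%. The controls of limb and forebrain SMARCA4 were not analysed here.

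**Figure D4:**
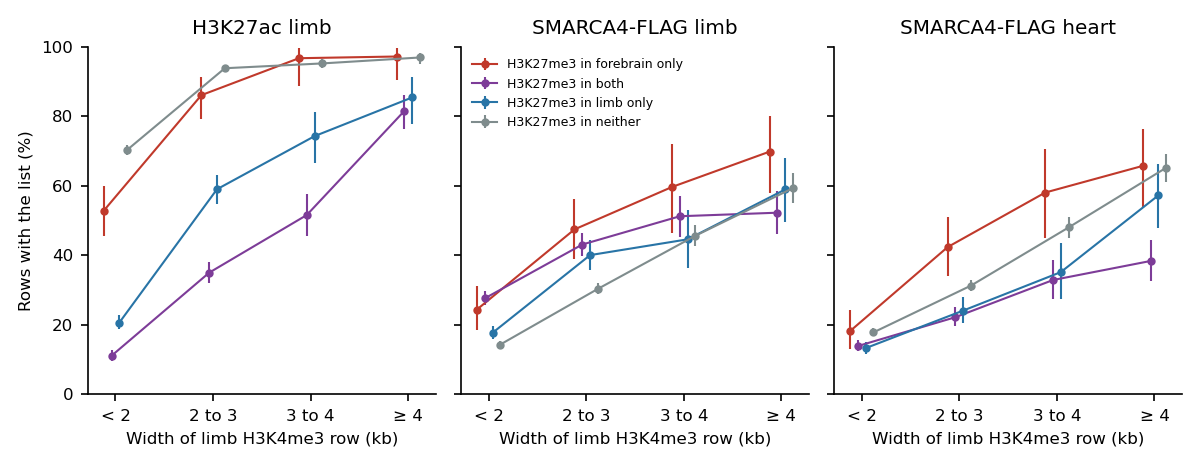
Share of rows (percent, vertical axis) with limb H3K27ac, SMARCA4 in limb and SMARCA4 in heart, by width of the limb H3K4me3 row in kb (horizontal axis) and class; bars are exact 95% binomial intervals. At 4 kb and above, H3K27ac is on 97.3% of forebrain-only rows and 97.0% of rows with H3K27me3 in neither tissue.

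Heart SMARCA4 was on 177 forebrain-only rows (38.1%, interval 33.6 to 42.7, background 25.7%), against 19.8% with H3K27me3 in both tissues, 19.3% in limb only and 28.7% in neither. From 2 to 3 kb it was on 42.3% of forebrain-only rows and 31.3% of rows with H3K27me3 in neither tissue, while at 4 kb and above the shares were 65.8% and 65.2%. Off the control and input lists, heart SMARCA4 was on 24 of 78 forebrain-only rows (30.8%, interval 20.8 to 42.2) and on 23.6% of rows with H3K27me3 in neither tissue. That class lies inside the interval of the 78 rows. Rows with H3K27me3 in both tissues (13.7%) and in limb only (16.3%) lie below that interval. Face SMARCA4 was on 93.5% (background 90.7%), neural tube on 67.7% (60.2%), hindbrain on 29.0% (21.5%), midbrain on 5.16% (4.21%) and ESC on 11.4% (8.28%).

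Over all widths, face EP300 and NCOA2 were on shares of forebrain-only rows nearer to rows with no H3K27me3 than to rows with it in both tissues. Face EP300 was on 98 rows (21.1%, interval 17.4 to 25.1, background 18.6%), against 4.01% with H3K27me3 in both tissues and 26.7% in neither. NCOA2 in hindbrain was on 111 rows (23.9%, background 20.7%), against 10.5% and 26.3%. At 4 kb and above NCOA2 was nearer to rows with H3K27me3 in both tissues, with 28.8% against 22.6% and 45.8%. Off the control and input lists the order did not hold either: face EP300 was on 2 of 78 forebrain-only rows (2.56%), against 1.75% and 6.74%, and NCOA2 on 0 of 78, against 1.75% and 2.01%. NCOA1 in hindbrain was on 17 rows (3.66%, background 4.95%), against 0.912% and 7.17%. ESC EP300 was on 166 rows (35.7%, background 35.7%), at the background itself. SMARCC2 in face ran the other way, with 227 forebrain-only rows (48.8%, background 34.1%), 57.6% of rows with H3K27me3 in both tissues and 22.8% with it in neither, while SMARCC2 in hindbrain was on 3 rows (0.645%, background 0.543%). Per the authors' deposited tables, the peaks over forebrain-only rows had median fold enrichments of 5.80 for face EP300 and 7.27 for NCOA2. At rows with H3K27me3 in neither tissue these were 5.88 and 7.55. The authors' false discovery rate differed widely between whole lists, and no list was filtered by it here. Its median was 56.4% for face EP300, 18.2% for NCOA1, 1.8% for NCOA2 and 100% for midbrain SMARCA4. It was 0.65% for heart SMARCA4, 0.66% for face SMARCC2 and 0.04% for hindbrain SMARCC2.

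Input controls of FLAG samples, as the labels call them, held many of the same rows. The EP300 face control was on 340 forebrain-only rows (73.1%, background 70.7%), the SMARCA4 midbrain control on 341 (73.3%, background 71.4%) and the NCOA2 control on 128 (27.5%, background 27%). The NCOA1 control was on 13 (2.80%, background 2.67%), the SMARCC2 hindbrain control on 11 (2.37%, background 2.76%) and the SMARCC2 face control on 4 (0.860%, background 0.239%). Histone inputs touched few rows. The H3K27ac limb input was on 4 (0.860%, background 0.569%), the other limb input on 4 (0.860%, background 0.511%) and the forebrain input on 0 of 465, which allows a share of up to 0.645% by a limit of 3 counts and 0.790% by the exact interval (background 0.0452%). Measured the same way, face EP300 (21.1%), midbrain SMARCA4 (5.16%), NCOA2 (23.9%) and hindbrain SMARCC2 (0.645%) lay below their own controls, and face SMARCC2 (48.8%) and NCOA1 (3.66%) above them. In 4 pairs the control list is the longer, with 28895 rows against 3589 for face EP300, 19772 against 1513 for midbrain SMARCA4, 6781 against 3444 for NCOA2 and 1990 against 1414 for NCOA1, and the part of list length in these orders was not tested.

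Forebrain-only rows with and without limb H3K27ac differed in most lists. The 351 acetylated rows had a median width of 2609 bp and the 114 others 1421 bp. The nearest limb H3K27me3 row was a median of 77471 bp away from the first and 11534 bp from the second. Limb SMARCA4 was on 52.4% of the first (interval 47.1 to 57.8) and 14.0% of the second (8.24 to 21.8), and forebrain SMARCA4 on 48.1% and 28.9%. NCOA2 was on 31.3% and 0.877%, and face EP300 on 27.1% and 2.63%. H3K4me1 did not separate them, with 89.5% and 89.5% in limb. The SMARCA4 midbrain control was on 81.5% of the first and 48.2% of the second, and the part of width and of the control signal in these differences was not tested. Limb SMARCA4 was also higher with limb H3K27ac than without it in the other classes. It was on 33.8% and 19.9% of all shared rows, and on 55.9% and 28.6% with H3K27me3 in both tissues. The shares were 41.45% and 18.1% in limb only and 29.6% and 8.9% in neither. Forebrain SMARCA4 was on 39.0% and 31.0% of all shared rows.

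Some genes of signalling and of connective tissue were found at these rows. Gene starts within 1 kb of forebrain-only rows carried 351 gene names, 3.04% of the 11539 at any shared row, and that is the background for the counts that follow. At that share a list of 28 genes or fewer holds few genes or none, so nothing is read from a count of 0. Of 43 genes of BMP, Hedgehog, FGF, WNT and retinoid signalling at shared rows, 5 were at forebrain-only rows, 29 at rows with H3K27me3 in both tissues, 3 in limb only and 8 in neither. Of 42 genes of cartilage, connective tissue and matrix, 6 were at forebrain-only rows, 22 at both-tissue rows, 6 at limb-only rows and 8 at rows with none. Of 28 limb mesenchyme and patterning regulators, 0 were at forebrain-only rows and 27 were at rows with H3K27me3 in both tissues. None of 23 forebrain regulators, 5 HOX genes, 17 GATA, forkhead, TBX and SOX factors, 22 Polycomb and trithorax subunits or 19 housekeeping genes was there, and 18 of the housekeeping genes were at rows with none. Nor was any of the markers of other cells the tissue can hold: 7 of endothelium, 6 of blood, 5 of muscle and 9 of surface ectoderm. A gene with several starts can count in more than 1 class.

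The tissue labels were checked against markers. Starts of all 13 limb mesenchyme markers that could be placed were near limb H3K27ac, with near meaning within 1 kb. All 13 were also near limb H3K27me3, and 10 were near forebrain H3K27me3, so H3K27me3 alone did not tell limb from forebrain by these markers. Of 14 forebrain markers, 2 were near limb H3K27ac, 14 near limb H3K27me3 and 8 near forebrain H3K27me3.

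The 5 signalling genes act at different steps of their pathways. Rarg encodes a retinoic acid receptor, Gli3 the Hedgehog-regulated transcription factor, Smad6 an intracellular inhibitor of BMP signalling, Bambi a BMP pseudoreceptor and Dusp6 a phosphatase of ERK that FGF signalling induces. Their limb rows were 10407 bp (Rarg), 7486 bp (Smad6), 6140 bp (Dusp6), 5462 bp (Gli3) and 5179 bp (Bambi) wide. All 5 had limb SMARCA4 and 2, Dusp6 and Bambi, had forebrain SMARCA4. Of the 5, Bambi alone had no limb H3K27ac, and it lay in 7 FLAG lists and in 0 control or input lists. At Gli3 the forebrain H3K27me3 row ran from 2442 to 4280 bp downstream of the start and at Dusp6 from 905 to 3952 bp, with another from -3571 to -2328 bp. At Rarg it ran from -596 to 2427 bp, over the start. Rarg also counted at another limb H3K4me3 row, with H3K27me3 in both tissues, where limb H3K27me3 ran from -10917 to -9837 bp.

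The 6 matrix and connective tissue genes were Col1a1 and Col1a2, which encode type I collagen, Fn1 (fibronectin), Fbn2 (fibrillin-2), the growth factor gene Igf1 and Snai2, a transcription factor of mesenchymal cells. All 6 had limb H3K27ac. Their rows were narrower, from 2295 bp (Col1a2) to 4106 bp (Fbn2), and only that of Fbn2 had limb SMARCA4. At Snai2, forebrain H3K27me3 covered 3012 bp of a row of 3375 bp, and the row was in 2 FLAG lists. Col1a1 was in 1 FLAG list, that of face SMARCA4, and in 0 control lists. At Col1a2 the forebrain H3K27me3 row ran from 71 to 678 bp downstream of the start, and limb H3K27ac from -1250 to 933 bp.

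**Figure D5:**
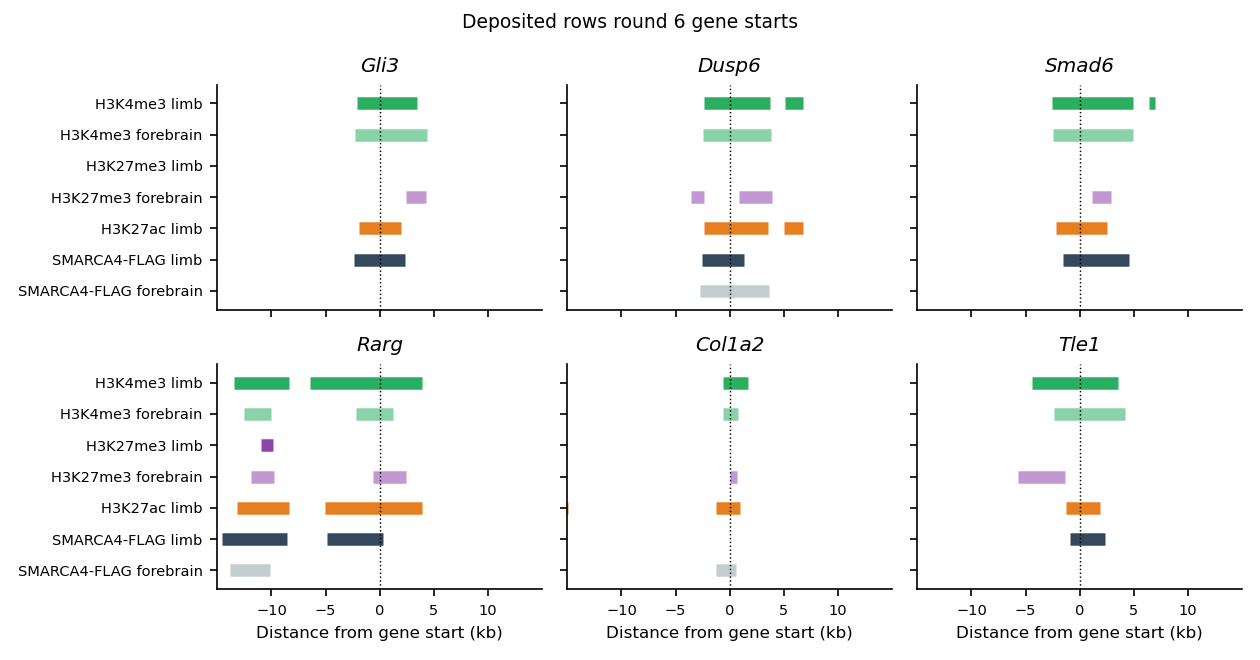
Rows of 7 deposited lists (bars) by distance from the gene start in kb, transcription to the right, at 6 genes of forebrain-only rows. At Gli3, Dusp6, Smad6, Rarg, Col1a2 and Tle1 forebrain H3K27me3 overlaps limb H3K4me3, and limb H3K27me3 is seen only at Rarg, where a row runs from -10917 to -9837 bp.

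Pathway groups put together after the gene names of these rows had been seen, and filled up with relatives, are given as a description only. Of 14 genes of FGF and ERK feedback and response, 6 were at forebrain-only rows: Dusp6, Il17rd and Spred1, which dampen FGF or Ras signalling, Etv1 and Etv5, ETS factors induced by FGF, and Frs2, a docking protein of FGF receptors. Of the rest, Spry4, Etv4 and Dusp4 were at rows with H3K27me3 in both tissues, Spred3 at a limb-only row, and Spry1, Spry2, Spred2 and Flrt3 at rows with none. All 6 rows had limb H3K27ac, 5 had forebrain SMARCA4, 4 heart SMARCA4 and 2 limb SMARCA4. Over the 51 forebrain-only rows of all lists, fixed and added, 50 had limb H3K27ac, 34 heart, 31 limb and 26 forebrain SMARCA4, and their median width was 4211 bp. In the same order, the shares were 87.7%, 44.9%, 53.2% and 45.8% of all 325 forebrain-only rows with a gene start. They were 97.3%, 65.8%, 69.9% and 50.7% of the 73 forebrain-only rows at least 4 kb wide. These shares are the background for the row counts of the groups, and the part of width in those counts was not tested. Of 9 genes of BMP feedback and the ID family, 5 were at forebrain-only rows, namely Id1, Id2, Smad6, Bambi and Tgif1, a SMAD corepressor. ID proteins block basic helix-loop-helix factors. The Id2 row was 9722 bp wide in limb and 9461 bp in forebrain.

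Of 19 WNT genes, 10 were there. Wls (Gpr177) is needed for WNT secretion, Ror2 is a WNT5A receptor, Lrp5 a coreceptor, Lgr4 a receptor of R-spondins and Frzb a secreted antagonist, while Tcf7l2 and Tle1 act at target genes and Prickle1 and Prickle2 in planar cell polarity. The last was Lrp4, a further LDL receptor family member. These genes had 11 forebrain-only rows, of which 11 had limb H3K27ac, 9 limb SMARCA4 and 7 forebrain SMARCA4. The Hedgehog genes were Gas1, a coreceptor, the cilium genes Evc and Evc2, which share 1 row, and Gli3, 4 of 13 genes, with 4 at rows with H3K27me3 in both tissues. Both Rara and Rarg, of 5 retinoid receptor genes, had such a row, and so did Hes1, the Notch effector, 1 of 8 Notch genes. The Hes1 row was 8886 bp wide in limb and 9141 bp in forebrain, and lay 655 bp from a limb H3K27me3 row.

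Matrix adhesion and remodelling had 13 of 22 genes there. Besides the collagens, Fn1 and Fbn2, they were Mmp14 and Mmp2, proteases of which the first activates the second, their inhibitor gene Timp3, Ltbp1 and Ltbp3, Sulf1 and Ext1, which modify and build heparan sulfate, Lamc1 and Itgb5. All 13 rows had limb H3K27ac, 10 had heart SMARCA4, 7 forebrain SMARCA4 and 6 limb SMARCA4. Axon guidance had 5 of 17 genes, namely Robo1, Robo2, Epha7, Ephb3 and Sema3a, with 6 at rows with H3K27me3 in both tissues and 6 at limb-only rows. Among the ETS factor genes, 3 of 9 had a forebrain-only row, Ets1, Ets2 and Elk3.

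The number of FLAG lists per row was higher than in the other classes. At least 7 of the 14 FLAG lists held 113 forebrain-only rows (24.3%, interval 20.5 to 28.5, background 14.5%). The share was 11.1% with H3K27me3 in both tissues, 9.36% in limb only and 16.6% in neither. The part of row width and of the control signal in this order was not tested. The rows of Cachd1 and of the calponin gene Cnn3 were in 11 lists. Nfib, a nuclear factor I gene, Mmp14, Phldb2, the connexin gene Gjc1 (Gja7), Tanc1 and Cd63 were in 10. These rows were also in 2 or 3 control or input lists. No FLAG list held 14 rows (3.01%, background 4.49%), the widest of them that of Asb4, 2943 bp in limb and 593 bp in forebrain, with limb H3K27ac.

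The widest limb rows were at Cxxc5 (11601 bp), Bcl11a (10620 bp), Rarg, Tcf7l2 (10163 bp), near Ahdc1 (9853 bp), at Id2, the calponin gene Cnn2 (9321 bp), AK040430 (9172 bp), Ephb3, Hes1, Rasl11b, the cyclin gene Ccnd2 (8651 bp), Rara (8078 bp), Tle1 (8002 bp) and Smad6. All 15 had limb H3K27ac. The widest forebrain H3K27me3 row, 31302 bp, covered all 2784 bp of a row of Ets1, whose nearest limb H3K27me3 row was 48444 bp away. Further wide ones were 11774 bp at Skap2, 10190 bp at Wls, 8563 bp near Nr4a2 and 7493 bp at Ccno. From these rows the nearest limb H3K27me3 row was 1834, 55824, 3667 and 2064 bp away. Of the 10 rows with the widest forebrain H3K27me3, 4 had limb H3K27ac.

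Distal elements, meaning rows off H3K4me3 of both tissues, were compared around the forebrain-only rows. A distal limb H3K27ac row lay within 50 kb of 157 rows (33.8%, interval 29.5 to 38.3, background 26.8% of all shared rows), against 23.3% at rows with H3K27me3 in both tissues, 27.1% in limb only and 27.6% in neither. A distal heart SMARCA4 row lay within 50 kb of 224 (48.2%, interval 43.5 to 52.8, background 34.7%), against 32.1%, 33.1% and 35.3%. Distal limb H3K4me1 was near 83.2% (background 73.65%), against 77.6%, 77.9% and 70.7%. Distal forebrain H3K4me1 was near 61.9% (background 53.2%), against 56.3%, 62.2% and 49.4%, and distal forebrain SMARCA4 near 10.8% (background 8.98%), against 8.24%, 10.9% and 8.67%, so in neither did they exceed limb-only rows. Distal limb SMARCA4, of which the list has 522 rows, was near 5.16% (interval 3.33 to 7.58, background 4.37%), against 4.47%, 3.98% and 4.39%, all inside that interval.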

How the data were processed

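The series has 34 samples with 1 library each. 30 deposited peak lists were read: 14 of FLAG samples, 6 of FLAG controls, 7 of histone marks and 3 of inputs. For SMARCA4, the controls of 4 tissues (limb, forebrain, neural tube, heart) were not analysed here. Reads were 36 or 50 bp long; the submitters' processing notes name BWA and mm9. The peak caller and tool versions are not given in the sources used here. The 6 FLAG controls are called input controls in the labels. Per the file headers, the authors give a count of tags in each peak, a score from -10 times log10 of its p-value, a fold enrichment ratio over an unstated reference and, in some lists, a percent false discovery rate. All were used as deposited, only to describe or rank peaks. Histone rows carry the authors' rank in their names, which was used as given. Library depth is unknown, since only tags per peak are given. The peak lists of SMARCA4 in forebrain, limb and neural tube have wide rows (median 3100, 2300 and 2250 bp), so overlaps with them are not on the scale of the other lists.

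Rows were compared by overlap of at least 1 bp, and shares carry exact (Clopper-Pearson) 95% intervals that cover counting error only. The difference between 2 shares has a Newcombe interval. With 1 library per condition no p-value was computed. Gene starts were placed from the distances to genes in the deposited lists, where at least 2 peaks gave the same point: 18934 of 23432 names, with 0 conflicts, of which 83.8% matched RefSeq (GRCm38.p6) symbols. RefSeq positions are used for promoter sequences only, and all other positions are mm9. The members and gene lists were chosen with earlier results of these data known, and the 9 groups of added genes were assembled after the gene names at these rows had been seen. Named genes are those of the lists, the 15 widest rows, the 10 rows in the most FLAG lists, the 10 with the widest forebrain H3K27me3, 5 at each edge of the rule and the 5 widest in no FLAG list. Genes at rows with a large ratio of widths, and those of the added groups, were named after their values were seen.

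Labels disagree in places, and titles were followed. For hindbrain SMARCA4 the tissue tag names forebrain. The protocol text of the histone samples names heart and hindbrain, although their titles and tissue tags give limb or forebrain, so the tissue of the selecting lists rests on the latter. SMARCA4 also stands in the genotype field of EP300, NCOA1, NCOA2 and SMARCC2 samples, whose tagged protein is taken from title and description. The SMARCA4 ESC sample is described as pooled embryos. The overlap code was tested on simulated data. Tools were Python 3.11.15, pandas 2.3.3, numpy 2.4.6, SciPy 1.17.1 and matplotlib 3.10.9. Alternatives varied the overlap, the H3K27me3 lists, the unit, the part of the row searched, the controls and the distance to a gene start.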

Additional observations from a re-analysis of the deposited data

How the results depend on the processing

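Of the values recomputed, 44 stayed within the counting interval of the reported value (or, for a number of rows, within 1.5 times it) and 18 moved; no difference changed sign. Requiring forebrain H3K27me3 over at least 50% of the row left 53 rows, with a median width of 1718 bp, limb H3K27ac on 64.15%, SMARCA4 on 22.64% in limb and 32.08% in forebrain, and a difference in H3K27ac from rows without H3K27me3 of -18.99 percentage points. With no limb H3K27me3 within 5 kb (386 rows), H3K27ac was on 80.83% and the difference was -2.314, with an interval from -6.602 to 1.383 that includes 0. That filter was put on forebrain-only rows alone, and not on the rows without H3K27me3. The better-ranked 50% of the forebrain H3K27me3 list gave 209 rows, with forebrain SMARCA4 on 38.76%. Rows touching no control or input list were 78, with a median width of 1428.5 bp, H3K27ac on 44.87%, limb SMARCA4 on 7.692% and forebrain SMARCA4 on 15.38%. The better-ranked 50% of the FLAG and H3K27ac lists gave H3K27ac on 59.78%, limb SMARCA4 on 27.31% and forebrain SMARCA4 on 26.02%, lower by construction since fewer peaks are counted. The cause of the other shifts was not tested. An overlap of 200 bp (416 rows), H3K27me3 lists of equal length (509), forebrain rows as the unit (478) and, chosen after seeing the data, forebrain H3K27me3 that also touches forebrain H3K4me3 (446) moved no value beyond its interval. No paired analysis was possible because each condition has 1 library.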

Other observations

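The 140 forebrain-only rows with no gene start within 1 kb differed from the 325 with a start in most lists. Their median width was 1506 bp, against 2688 bp. Limb H3K27ac was on 47.1% of them (interval 38.7 to 55.8) and on 87.7% of rows with a start (83.6 to 91.1). Limb SMARCA4 was on 19.3% and 53.2%, and ESC EP300 on 21 of 140 and 145 of 325 rows. Forebrain SMARCA4 was on 37.9% (interval 29.8 to 46.4) and 45.8% (40.3 to 51.4), and ESC SMARCA4 on 11.4% of each. The SMARCA4 midbrain control was on 44.3% and 85.8%, and its part in these values was not tested.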
